A study of Homo sapiens with 28 samples.

Results

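Kit-enriched bone marrow of 3 wild-type (WT) mice was profiled for 2 marks on the same residue, lysine 27 of histone H3, and the peaks of the acetylation H3K27ac were set against those of the trimethylation H3K27me3 in the same mouse. The data are 6 of the 28 libraries of the series, an H3K27ac and an H3K27me3 library from each of WT1, WT2 and WT3. All 3 mice were of the C57BL/6 strain and carried floxed Ezh2 (fl/fl) and floxed Runx1 (fl/fl) alleles, with Rag1 (+/+) and Flt3 (+/+). Their labels name no Cre, so both floxed genes are taken as intact, and every library shares the floxed alleles. Per the labels, marrow cells were enriched for surface Kit on CD117 magnetic beads, which is an enrichment and not a sort to a single cell type. The sex and age of the mice are not given in the sources used here. Chromatin immunoprecipitation sequencing (ChIP-seq) was called into broad peaks by the authors, separately for each library, and each of 21887 protein-coding genes was put into 1 of 5 states per mouse: H3K27ac only, H3K27me3 only, both marks at the same place, both marks apart, or neither.

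H3K27ac is written mainly by the acetyltransferases EP300 and CREBBP and is found at promoters and enhancers of expressed genes. H3K27me3 is written by EZH2 or EZH1 within Polycomb repressive complex PRC2, is bound by chromobox proteins of the complex PRC1, and covers silenced developmental genes in broad domains. A single lysine cannot carry both groups at once, but a nucleosome has more than one H3 tail and a gene has more than one allele. In a bulk library, a peak of both marks may come from the same nucleosome, from different alleles or from different cells, and few cells with a strong mark cannot be told apart from many cells with a weak one.

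The H3K27ac libraries held more fragments than the H3K27me3 libraries. H3K27ac had 7038851, 6515614 and 7072997 fragments in WT1, WT2 and WT3, and H3K27me3 had 2766339, 3994483 and 3780713 (exact permutation p = 0.1, two-sided, the smallest that 3 against 3 libraries allow). The lists held 22799, 14326 and 17113 peaks for H3K27ac and 17225, 7956 and 11928 for H3K27me3. WT2 had the fewest peaks of both marks. H3K27me3 peaks were also the weaker calls, with 8413, 6016 and 7066 H3K27ac peaks but 265, 95 and 814 H3K27me3 peaks reaching a −log10 q of 5 in the authors' lists. A gene without a peak is therefore not a gene without the mark.

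The enrichment named by the labels was read against marker genes. Of 8 genes listed as markers of Kit-expressing progenitors, Kit itself, Myb and Mpo carried H3K27ac in all 3 mice, 3 others did so in 1 or 2 mice, and Cd34 and Gata2 did so in none. All 5 markers of later neutrophils (Camp, Ltf, Ngp, S100a8 and S100a9) carried H3K27ac in every mouse and H3K27me3 in none, with a summed H3K27ac length within 5 kb of the gene ends of 30.9, 21.4 and 22.2 kb. They are part of a longer list of 12 late neutrophil genes, given with the lists, in which 8 had H3K27ac alone in all 3 mice. In that list Mmp9 had H3K27me3 alone in all 3 mice, and Lcn2, Mmp8 and Cxcr2 differed between mice. The summed H3K27ac length over the progenitor markers was 15.8, 6.95 and 12.5 kb. Of 5 erythroid markers Klf1 was acetylated in all 3 mice and 1 other in 1 or 2 mice, and of 4 B cell markers Cd79a in all 3 mice and 2 others in 1 or 2 mice. None of the 4 T cell markers carried H3K27ac at a gene end in any mouse, although they summed to 2.79, 1.21 and 1.30 kb within 5 kb. In a longer list of 15 T lineage genes, given with the lists, Cd3d had H3K27ac alone in all 3 mice. None of the 4 markers of stroma and endothelium carried H3K27ac at a gene end in any mouse, with 0 kb within 5 kb. In a longer list of 12 such genes, H3K27ac lay at the ends of 0%, 25% and 0% in WT1, WT2 and WT3. Cells of these other lineages were not separated from Kit-expressing cells in the libraries, and their part in the results was not tested.

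Total territory of the 2 marks was not told apart from the spread between mice, while the shape of their peaks differed. Merged H3K27ac peaks covered 29.7, 16.8 and 21.2 Mb in WT1, WT2 and WT3, and merged H3K27me3 peaks covered 27.3, 13.8 and 21.7 Mb. The means were 22.6 Mb ± 6.59 for H3K27ac and 20.9 Mb ± 6.74 for H3K27me3 (SD, n = 3 each), and they lay closer together than the mice did (exact permutation p = 0.8). The difference, H3K27ac minus H3K27me3, depended on which peaks were kept: it was 10.1 Mb with a −log10 q minimum of 5 (exact permutation p = 0.1, the smallest possible) and -5.10 Mb when each library was cut to its 7956 strongest peaks (exact permutation p = 0.2). WT1 was highest and WT2 lowest for both marks.

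H3K27me3 lay in long domains. Peaks over 5 kb held 6.89%, 3.12% and 3.84% of the H3K27ac territory in WT1, WT2 and WT3, against 32.8%, 27.2% and 32.7% of the H3K27me3 territory. The 2 ranges did not overlap, with means of 4.62% ± 2.0 for H3K27ac and 30.9% ± 3.22 for H3K27me3 (SD, n = 3 each, exact permutation p = 0.1). The median width of a peak was 1003 bp ± 22.1 for H3K27ac and 932 bp ± 136 for H3K27me3 (SD, n = 3 each, exact permutation p = 0.6). That difference reversed to -1860 bp with a −log10 q minimum of 5 (exact permutation p = 0.1), to -89.8 bp with 7956 peaks in every library and to -11 bp without WT1. H3K27ac was closer to gene ends: 42.5% ± 6.40 of its territory lay within 1 kb of the end of a protein-coding gene, against 28.5% ± 4.26 for H3K27me3 (SD, n = 3 each, exact permutation p = 0.1). Outside genes and their 1 kb flanks lay 19.3% ± 2.34 of H3K27ac and 31.9% ± 3.71 of H3K27me3 territory (SD, n = 3 each, exact permutation p = 0.1). Within each mouse the order of the marks was the same for all 3 of these shares, and the sign-flip test over mice gave its smallest possible p, 0.25.

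**Figure D1:**
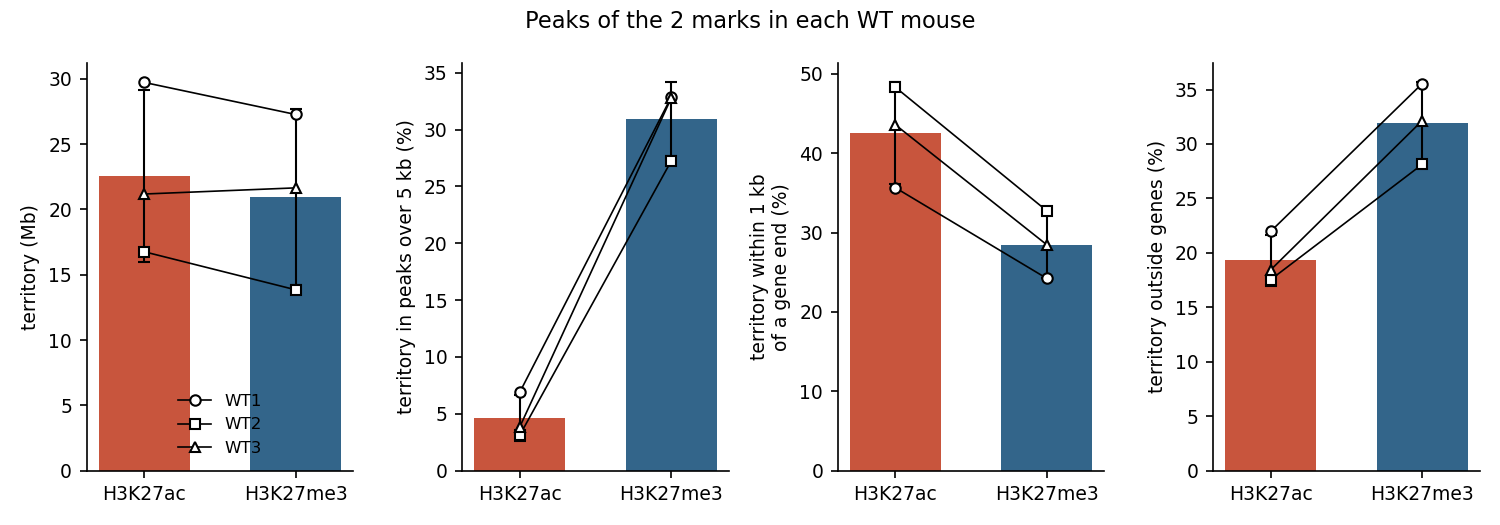
Peaks of both marks in each mouse: territory (Mb) and the percent of territory in peaks over 5 kb, within 1 kb of a gene end and outside genes. Bars are means, error bars SD (n = 3), and lines join the libraries of 1 mouse. Territory overlaps between the marks, while peaks over 5 kb hold 3.12% to 6.89% of H3K27ac and 27.2% to 32.8% of H3K27me3 territory.

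Most marked genes carried 1 mark. H3K27ac alone lay at the ends of 9046, 8443 and 8665 genes in WT1, WT2 and WT3, which is 41.3%, 38.6% and 39.6% of the 21887 genes. H3K27me3 alone lay at 3749, 3095 and 3624 genes, or 17.1%, 14.1% and 16.6%. A gene counted as marked when peaks covered at least 200 bp of the 1 kb either side of one of its ends. Since the gene table gives no strand, either end may be the promoter, and the 2 ends of a gene could differ.

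Both marks were rare. Peaks of the 2 marks shared at least 1 bp at the ends of 332, 150 and 296 genes in WT1, WT2 and WT3, or 1.52%, 0.685% and 1.35% of genes. A further 347, 152 and 275 genes, or 1.59%, 0.694% and 1.26%, carried both marks without a shared base within 1 kb of either end. Farther out the marks could still overlap, as at Ntng2, apart in all 3 mice. There they shared 0, 0.399 and 1.79 kb within 5 kb of the ends in WT1, WT2 and WT3. WT2, with the shortest territories, had the fewest genes with both marks. Neither mark was called at 8413, 10047 and 9027 genes, which is 38.4%, 45.9% and 41.2%.

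**Figure D2:**
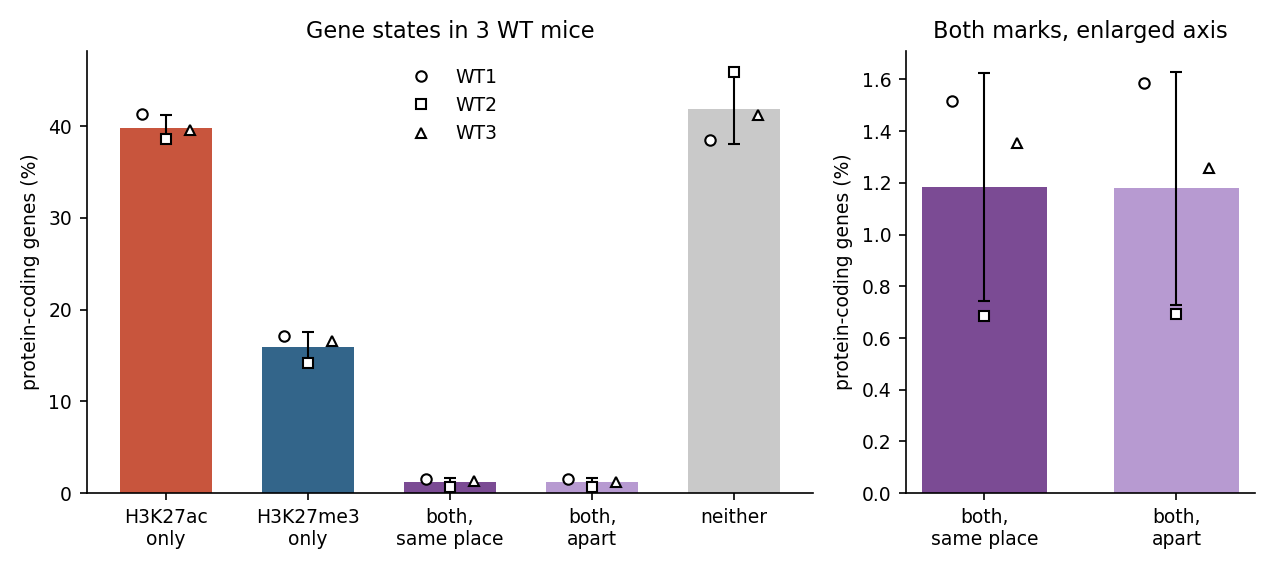
Percent of 21887 protein-coding genes in each state; bars are means over 3 mice, error bars SD, and symbols the 3 mice. Genes with H3K27ac only average 39.8% and with H3K27me3 only 15.9%, and both classes with 2 marks average 1.18%, with WT2 lowest in each.

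A gene with H3K27me3 was less often acetylated than genes at large. In WT1, WT2 and WT3, H3K27ac lay at 15.3%, 8.89% and 13.6% of the genes with H3K27me3, against 44.4%, 39.96% and 42.2% of all genes. The shortfall was -29.1, -31.1 and -28.6 percentage points, in the same direction in 3 of 3 mice and far larger than the differences between mice (mean -29.6 points, two-sided exact sign-flip p = 0.25, the smallest that 3 mice allow). If the marks had been placed independently, the product of their shares would give 1967, 1357 and 1770 genes with both, and 679, 302 and 571 were observed. This comparison counts marks at either end of a gene, so genes with the marks apart are included.

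The calls were stable for genes with 1 mark and unstable for genes with both. In all 3 mice 18747 genes, 85.7%, were in the same state. H3K27ac alone was called in all 3 mice at 7930 genes (36.2% of all genes), H3K27me3 alone at 2725 (12.5%), both at the same place at 86 (0.393%), both apart at 91 (0.416%) and neither at 7915 (36.2%). Of the genes that had H3K27ac alone in any mouse, 83.6% had it in all 3. For H3K27me3 alone that share was 63.5%, for both at the same place 17.2% and for both apart 18.6%.

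The mice disagreed mostly about presence and rarely about which mark. Of the 3140 genes whose state was not the same in the 3 mice, 1352 differed in H3K27ac calls alone and 1555 in H3K27me3 calls alone. WT2 alone departed from the other 2 mice at 1173 genes, WT1 alone at 1084 and WT3 alone at 719. A gene with H3K27me3 only in WT1 had neither mark in WT2 in 23.0% of cases, and the opposite move, from WT2 to WT1, was 2.81%. Genes with both marks at the same place in WT2 had the same state in WT1 in 70.7% of cases, while those of WT1 had it in WT2 in 31.9%. Both shares count the same genes, so their gap only restates that WT1 had 332 genes in that state and WT2 150. Only 66 genes (0.302%) carried H3K27ac alone in one mouse and H3K27me3 alone in another, among them Hes5, a Notch target, and Mzb1, a chaperone of antibody-secreting cells.

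The covered lengths behind those opposite calls varied. The longest coverage of either mark in any library had a median of 1.51 kb over the 66 genes, and 4 genes had more than 5 kb. Mzb1 had 1.24, 0 and 0 kb of H3K27ac within 5 kb of its ends and 3.85, 3.43 and 4.23 kb of H3K27me3, so H3K27me3 lay near it in all 3 mice. Hes5 had 3.49, 2.24 and 1.14 kb of H3K27ac within 5 kb of its ends and 0.283, 0 and 2.83 kb of H3K27me3 in WT1, WT2 and WT3. It counted as both at the same place in WT1, H3K27ac only in WT2 and H3K27me3 only in WT3, although some H3K27ac lay near the gene in all 3 mice.

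Genes with H3K27ac alone in all 3 mice differed widely in covered length and in role. Ranked by the mean length covered within 5 kb of a gene end, the first was Irf2bp2, a corepressor partner of IRF2 (mm10 chromosome 8, 126588296 to 126593986). H3K27ac covered 14.8, 12.3 and 12.8 kb there in WT1, WT2 and WT3, and H3K27me3 covered 0 kb. Zfp36, whose product tristetraprolin destabilises AU-rich mRNAs (chromosome 7, 28376784 to 28379228), had 10.8, 10.5 and 8.73 kb of H3K27ac and at most 0.173 kb of H3K27me3. Next came Tbc1d10c, a GTPase-activating protein, Nfix, a transcription factor, Atp6v0c, a subunit of the vacuolar proton pump, Tyrobp, the signalling adaptor of many myeloid receptors, Med29, a Mediator subunit, and Sec22c of vesicle transport. Their mean H3K27ac lengths ran from 8.86 down to 8.45 kb. Since the states and these ranks use the same lengths, no test was applied to them.

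Windows of neighbouring genes limit what belongs to which gene. Nfix (chromosome 8, 84704712 to 84801238) begins where Lyl1, a helix-loop-helix factor of blood progenitors, ends, so its 9.99, 7.58 and 8.80 kb of H3K27ac lay largely in a window that both genes share. Over the whole Nfix gene H3K27me3 was also called in 3 of 3 mice. Of the genes with H3K27ac alone in all 3 mice, 49.6% shared an end window with another gene, against 26.1% of those with H3K27me3 alone and 32.2% of all genes.

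The genes with the longest H3K27me3 among those with H3K27me3 alone in all 3 mice included Hox and other homeobox genes. Hoxd10 (chromosome 2, 74684273 to 74695106) had 0 kb of H3K27ac and 20, 18.96 and 20 kb of H3K27me3 in WT1, WT2 and WT3, where 20 kb fills its windows. Evx2, the homeobox gene at the end of the Hoxd cluster (chromosome 2, 74652989 to 74661520), had 0 kb of H3K27ac and 18.5 kb of H3K27me3 in each mouse, which also fills its windows. Hoxc6, Tbx2, Skor1, Pitx1 and Hoxd3 were also among the first 8, with mean H3K27me3 lengths from 18.6 to 17.7 kb and no H3K27ac. They encode transcription factors or, for Skor1, a transcriptional corepressor. The median gene with H3K27me3 alone had 3.27 kb covered, and the median gene with H3K27ac alone had 1.63 kb, each of its own mark.

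The same contrast held for single segments that a mark occupied in all 3 mice. Leaving out 2 segments on chromosome 9 described with the overlaps, the longest H3K27ac segment measured 9.90 kb at Irf2bp2, followed by 8.78 kb over the noncoding RNA gene Neat1 and 7.98 kb between Rhof and Setd1b. H3K27me3 held 48.02 kb from Evx2 to Hoxd10 (chromosome 2, 74647456 to 74695475), 21.9 kb over Dlx1 and Dlx2, 21.0 kb over Sim2, 20.1 kb over Lmx1b and 19.5 kb over Pax2. The longest H3K27me3 segment of all, 60.2 kb on chromosome 8 from 123564094 to 123624315, held no protein-coding gene. It contained 33 annotated ribosomal RNA genes of the 5S array, and the neighbouring 25.7 kb segment held another 15, of 65 ribosomal RNA genes in the gene table. A 17.9 kb segment at Fcgr3 on chromosome 1 held 14 transfer RNA genes. These genes are near-identical copies, and the files do not show how fragments that fit several copies were placed, so their H3K27me3 is uncertain.

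Held in common by all 3 mice were 13 Mb of H3K27ac, or 37.6% of the territory found in any mouse, and 10.7 Mb of H3K27me3, or 31.3%. The common territory made up 77.5% of the H3K27ac and 77.2% of the H3K27me3 territory of WT2, the largest shares of the 3 mice. Since the common territory has 1 length for all mice, that order only restates that WT2 had the smallest territories. Counted as genes rather than bases, any 2 mice shared a fraction of 0.876 to 0.908 of the genes that either had with H3K27ac, and 0.718 to 0.777 of those with H3K27me3.

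Covered lengths were tested across all genes with limma, on the kb that peaks covered near the gene ends (5 kb either side) in 3 H3K27ac against 3 H3K27me3 libraries. Of 15773 genes with a peak in at least 1 library, 8560 (54.3%) were covered over a longer stretch by H3K27ac and 3303 (20.9%) by H3K27me3, at a Benjamini-Hochberg adjusted p under 0.05. With mouse as a block the counts were 8216 and 3280. The H3K27me3 count was 2136 without WT3, and 29 with a −log10 q minimum of 5. For a gene with 0 kb of one mark in all 3 mice the spread comes from the other mark alone. States and lengths come from the same peaks, so the adjusted p of a gene picked by its state or length is no independent support. List counts given later are read against these 2 shares.

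Base by base the marks hardly met. In the same mouse the 2 marks shared 1.05% to 1.18% of the H3K27me3 territory (mean 1.09% ± 0.0726, SD, n = 3) and 0.869% to 1.20% of the H3K27ac territory. Between H3K27ac of one mouse and H3K27me3 of another, 6 combinations gave 0.811% to 1.33% and 0.621% to 1.32%. The same-mouse values lay inside the range of the different-mouse values. These 9 combinations share libraries and are given without a test. With 7956 peaks in every library the mean share of H3K27me3 territory was 0.512%, and with a −log10 q minimum of 5 it was 6.85% ± 7.80 (SD, n = 3), from few H3K27me3 peaks.

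The shared segments were of different kinds. There were 464, 209 and 410 of them in WT1, WT2 and WT3. In 43.3%, 33.0% and 37.8% an H3K27ac peak lay wholly inside an H3K27me3 peak, and in 44.6%, 55.0% and 49.3% the peaks met at their edges. An H3K27me3 peak inside an H3K27ac peak made up 12.1%, 11.96% and 12.9%. The H3K27ac peaks that met H3K27me3 were weaker calls than the rest, with a median −log10 q in the authors' lists of 3.09, 2.62 and 2.99 against 3.46, 3.95 and 3.74. The H3K27me3 peaks that met H3K27ac were the stronger ones, at 2.12, 2.11 and 2.56 against 1.56, 1.82 and 2.13. Most peaks lay far from the other mark, with a median of 85.3, 118 and 91.2 kb from an H3K27ac peak to the nearest H3K27me3 peak.

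A few segments of very high coverage made up a large part of the shared length. Segments where both peaks had a pileup of at least 50 numbered 6, 7 and 5 in WT1, WT2 and WT3, and held 15.1%, 32.4% and 17.8% of the shared kb. They recurred at the same places, on chromosome 2 from 98666258 to 98667329, in 2 neighbouring segments on chromosome 9 from 3000017 to 3008143 and from 3009303 to 3038220, and on chromosome 14 from 19415735 to 19419637 in WT1. On chromosome 2 the authors' pileup was 374, 382 and 387 for H3K27ac and 357, 363 and 360 for H3K27me3. Their fold enrichment over local background was 2.71, 2.37 and 2.32 for H3K27ac, below the medians of all H3K27ac peaks, 4.40, 4.64 and 4.49. For H3K27me3 it was 6.09, 3.91 and 4.52, against medians of 3.39, 3.86 and 3.87. Whether such segments are repeats where fragments are misplaced was not tested, so their shared length is uncertain. Of the 75.5 kb that both marks held in all 3 mice, 43.0 kb lay in 6 such segments. Without peaks of that height the mean shared part of H3K27me3 territory was 0.858% ± 0.131 (SD, n = 3).

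The 86 genes with both marks at the same place in all 3 mice were mixed in function, with several regulators of signalling and of blood cell fate. The shared length within 5 kb of the ends had a median over these genes of 0.587 kb. In 43 of the 86 the H3K27me3 stretch was the longer one in every mouse, in 15 the H3K27ac stretch was, and in 28 the order differed between mice. In 13 genes all of the H3K27ac near the ends lay under H3K27me3 in each mouse, and in 1 gene all of the H3K27me3 lay under H3K27ac. Genes that share a window with another of the 86 leave 78 separate places. The number depended on the peaks kept, with 15 genes when every library kept 7956 peaks and 0 with a −log10 q minimum of 5. From WT1 and WT3 alone 158 genes were counted, and a count over fewer mice can only stay or rise.

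The longest shared stretch was at Zfp36l1, whose product destabilises AU-rich mRNAs like that of Zfp36 (chromosome 12, 80107760 to 80113013). H3K27ac covered 5.34, 4.54 and 4.46 kb there in WT1, WT2 and WT3, H3K27me3 covered 2.97, 2.42 and 3.46 kb, and both covered 2.90, 2.08 and 2.95 kb. H3K27ac was the longer mark in each mouse, by 1.83 kb ± 0.367 (SE, limma, adjusted p = 0.00604). The neighbouring Gm52006 has the same window. Behind it came Map4k4, a kinase of stress signalling, Hoxa7, Tsc22d1, a leucine zipper protein, Ddx3x, an X-linked RNA helicase, Kcna3, a potassium channel of lymphocytes, and Sox12, with mean shared lengths from 1.33 to 1.23 kb.

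Blood and progenitor regulators among the 86 fell on both sides of equal coverage. Klf2, a Krüppel-like factor of quiescence in lymphocytes and endothelium, had 5.76, 4.40 and 4.40 kb of H3K27ac against 1.92, 1.11 and 1.55 kb of H3K27me3 (limma, adjusted p = 0.00142). Tal1, a helix-loop-helix factor required for blood formation, had 3.18, 3.42 and 3.77 kb of H3K27ac against 2.86, 1.43 and 1.29 kb of H3K27me3 (limma, adjusted p = 0.0237). Both were acetylated over the longer stretch in 3 of 3 mice. Trib1, a pseudokinase that directs the degradation of C/EBPα, had the longest H3K27ac of the 86, 6.89, 6.59 and 5.90 kb, with 0.373, 0.742 and 0.536 kb of H3K27me3, all of it under H3K27ac. Zfpm1, the GATA1 cofactor FOG1, averaged 4.21 kb ± 1.17 of H3K27ac against 2.22 kb ± 1.09 of H3K27me3 (SD, n = 3 each), which did not pass the test (limma, adjusted p = 0.0673).

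Others were covered over a longer stretch by H3K27me3 than by H3K27ac. Bmi1, a PRC1 subunit needed for stem cell renewal (chromosome 2, 18677018 to 18686629), had 2.72, 2.35 and 2.39 kb of H3K27ac against 7.26, 6.52 and 6.75 kb of H3K27me3, and only 0.419, 0.523 and 0.167 kb were shared. Its marks lay mostly side by side, and Commd3 and Gm46725 share an end window with it. Dusp4 and Dusp8, phosphatases of MAP kinases, had 0.770 kb ± 0.315 and 0.620 kb ± 0.153 of H3K27ac against 6.71 kb ± 1.33 and 9.37 kb ± 2.74 of H3K27me3 (SD, n = 3 each). Bach2, a repressor of B and T cell differentiation, had 1.29, 1.25 and 1.15 kb of H3K27ac, every base of it under the 3.30, 2.40 and 4.13 kb of H3K27me3. Klf4, a monocyte-associated factor, had 0.861, 0.890 and 1.03 kb against 3.63, 1.96 and 4.14 kb, and Sptb, the erythroid spectrin, 1.64, 0.795 and 0.869 kb against 5.17, 4.08 and 8.24 kb. For these 2 genes H3K27me3 was the longer mark in every mouse. Smo, Jag1 and Foxo1, which act in Hedgehog, Notch and insulin signalling, showed the same order, with means of 0.612, 0.872 and 0.975 kb of H3K27ac against 2.33, 3.19 and 3.58 kb of H3K27me3.

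**Figure D3:**
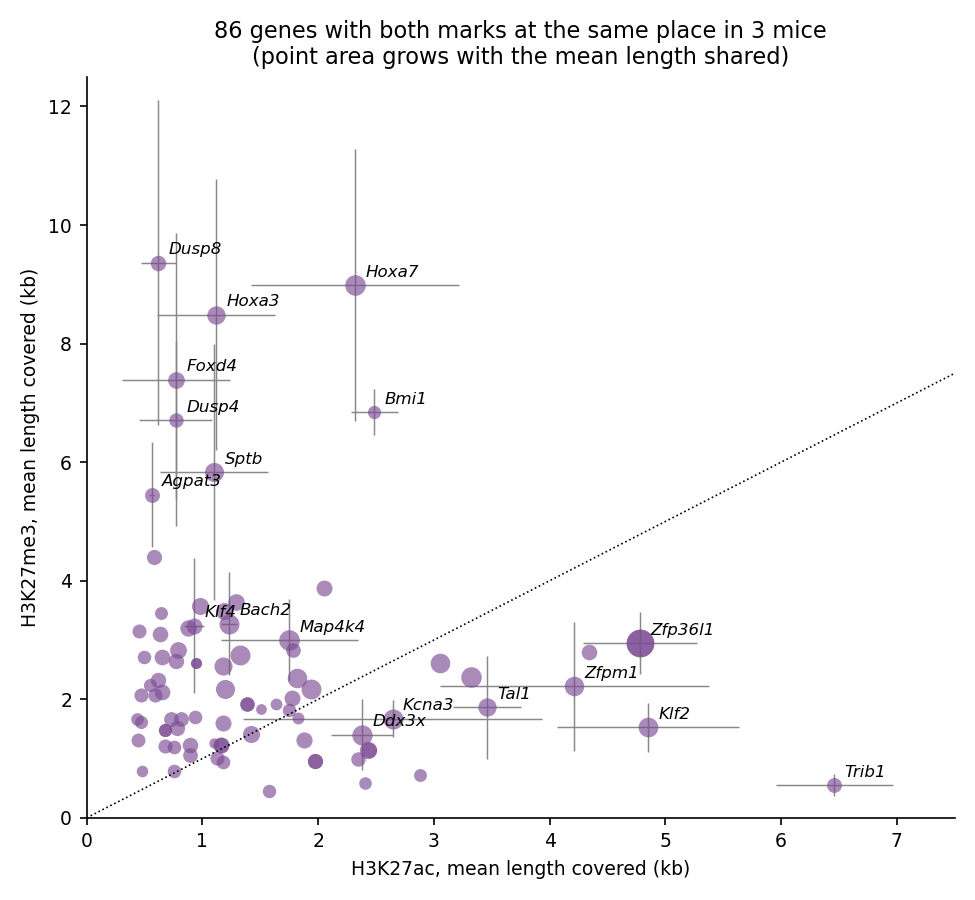
Mean length covered within 5 kb of a gene end (kb) by H3K27ac (x axis) and H3K27me3 (y axis) for the 86 genes with both marks at the same place in 3 mice. Error bars (SD, n = 3) are drawn for the named genes, and the dotted line is equal length. Trib1 and Klf2 lie far to the H3K27ac side and Dusp8, Hoxa7 and Bmi1 to the H3K27me3 side.

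The Hoxa cluster joined both marks in all 3 mice, while the Hoxc and Hoxd clusters did not. Over the 101.8 kb from 5 kb before Hoxa3 to 5 kb past Hoxa13 (chromosome 6, 52164059 to 52265880), 6, 5 and 5 H3K27ac peaks covered 5.28, 5.84 and 3.36 kb in WT1, WT2 and WT3. H3K27me3 covered 56.1, 44.5 and 55.9 kb there. In all 3 mice H3K27ac peaks fell between 47.95 and 66.6 kb from the left edge, a stretch that holds Hoxa7 and Hoxa9 and reaches the right end of Hoxa3 and the left flank of Hoxa10. The sole exception was a WT1 peak at 27.2 to 28.1 kb, at Hoxa4.

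Within that stretch the marks alternated and overlapped. Hoxa9, a factor that maintains progenitors, had 3.78, 4.24 and 2.18 kb of H3K27ac within 5 kb of its ends against 12.4, 5.31 and 11.6 kb of H3K27me3 (limma, adjusted p = 0.0312). Its state differed in each mouse, being both at the same place, both apart and H3K27me3 only in WT1, WT2 and WT3. Hoxa7 had 1.32, 3.05 and 2.59 kb of H3K27ac against 10.1, 6.35 and 10.5 kb of H3K27me3 (limma, adjusted p = 0.00447). Hoxa10 had 2.28, 2.55 and 0.438 kb of H3K27ac against 19.7, 15.1 and 18.7 kb of H3K27me3. Hoxa11 and Hoxa13, toward the right edge, had no H3K27ac and means of 13.7 and 11.2 kb of H3K27me3, and Hoxa5 was the only member with neither mark at its ends in all 3 mice.

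**Figure D4:**
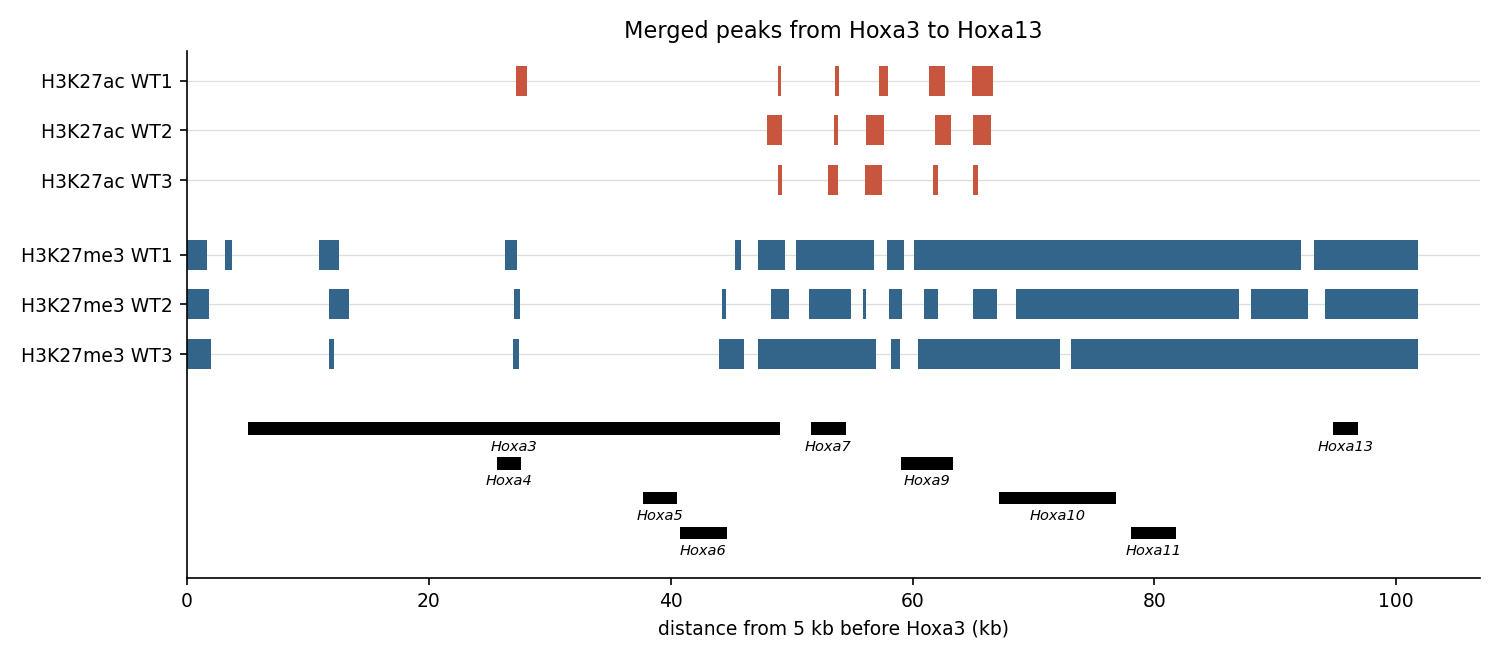
Merged peaks of H3K27ac (upper 3 rows) and H3K27me3 (lower 3 rows) from Hoxa3 to Hoxa13 in WT1, WT2 and WT3, with the genes as black bars, by distance from 5 kb before Hoxa3 (kb). Apart from 1 WT1 peak at Hoxa4, H3K27ac peaks lie between 47.95 and 66.6 kb in every mouse, and H3K27me3 covers most of the right part.

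The other Hox clusters were nearly pure. All 9 Hoxc and all 9 Hoxd genes had H3K27me3 alone in all 3 mice, and so did 8 of 10 Hoxb genes, against 12.5% of all genes. Limma called H3K27me3 longer at 9, 9 and 9 members. The exception in Hoxb was Hoxb4, a factor that expands blood stem cells, with H3K27ac alone at its ends in every mouse, 2.12, 1.03 and 2.03 kb within 5 kb. H3K27me3 covered 1.66 kb in that wider window in WT1 and 0 kb in the other 2 mice, and the difference did not pass the test (limma, adjusted p = 0.113). Hoxb3 had H3K27me3 at its ends in WT1 alone.

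Runs of adjacent genes in the same state gave the same picture. The longest runs with H3K27me3 alone in all 3 mice were 10 genes from Hoxc13 to Smug1 and 10 from Evx2 to Hoxd1, then 8 from Calcoco2 to Hoxb5 and 7 from Wnt6 to Ihh. Smug1, a uracil DNA glycosylase, is no Hox gene, and had 6.32, 6.26 and 6.30 kb of H3K27me3. The longest runs with H3K27ac alone were 19 and 18 genes of the 2 large histone clusters on chromosome 13, from H2bc13 to Zfp184 and from H4c8 to H2bc4, and 18 genes from Ier3 to Gm6034 in the major histocompatibility region. Histone genes are close copies of each other, so the split of fragments among them is uncertain. After a gene with H3K27ac alone the next gene had the same state in 53.2% of cases, and after one with H3K27me3 alone in 23.8%, against 36.2% and 12.5% of all genes. Neighbours can share a peak.

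Both marks apart often meant a window shared with a neighbour. Of the 91 genes with both marks apart in all 3 mice, 79.1% shared an end window with another gene, compared with 37.2% of the 86 with both at the same place. The 91 included Kdm6b, a demethylase that removes H3K27me3, with 5.55 kb of H3K27ac and 1.37 kb of H3K27me3 on average (limma, adjusted p = 0.000587). Cbx8, a chromobox protein that binds the mark, had 0.447 kb and 8.22 kb (limma, adjusted p = 2.99e-05). Fosb and Egr1, immediate early transcription factors, had 2.92 and 2.94 kb of H3K27ac and 3.52 and 2.03 kb of H3K27me3, and neither difference passed the test (limma, adjusted p = 0.423 and 0.251). Nr4a2, Nr4a3, Jak3, Bcl2l11 and Grn were also among the 91.

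Gene lists chosen for this tissue were read against the state shares of all genes in 3 mice. These were 36.2% for H3K27ac alone, 12.5% for H3K27me3 alone and 36.2% for neither. Of 20 housekeeping genes 19, and of 20 ribosomal protein genes 19, had H3K27ac alone in all 3 mice. The exceptions were Ywhaz and Rpl19 with neither mark. Both were acetylated in 3 of 3 mice when the whole gene was counted, so their peaks lie away from the ends of the annotated gene. Limma called H3K27ac longer at 19 and 19 of these genes, and H3K27me3 longer at none.

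The enzymes and complexes that handle lysine 27 were mainly acetylated themselves. Of 12 acetyltransferases, deacetylases and readers of acetylation, 11 had H3K27ac alone in all 3 mice, Ep300 with a mean of 2.77 kb and Crebbp with 3.56 kb. The exception was Brd3, with neither mark at its ends. Of 14 genes of PRC2 and of the demethylases, 9 had H3K27ac alone, with Jarid2, the PRC2 cofactor, longest at 4.83 kb. The share with H3K27ac alone among all genes was 36.2%. Epop, a PRC2 accessory subunit, had H3K27me3 alone, 6.80, 4.95 and 8.16 kb, and Kdm6b had both apart. Kdm6a had neither mark at its ends but 2.72, 2.58 and 3.22 kb of H3K27ac within 5 kb, and H3K27ac in the whole gene in 3 of 3 mice.

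PRC1 genes were less uniform. Of 20, 10 had H3K27ac alone in all 3 mice, against 36.2% of all genes. Ring1 and Rnf2, the ubiquitin ligases of the complex, were among the 10. Cbx2 had H3K27me3 alone with 4.75, 4.79 and 5.85 kb, Bmi1 had both at the same place, and Pcgf1 and Cbx8 had both apart. Limma called H3K27ac longer at 10 and H3K27me3 longer at 3 of the 20, against 54.3% and 20.9% of all genes tested.

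Neutrophil and progenitor genes differed in how far the mice agreed. Of 12 late neutrophil genes 8 had H3K27ac alone in all 3 mice, with Ngp, a granule protein, longest at 9.20, 8.33 and 6.93 kb. Lcn2 had H3K27ac at its ends in WT1 and WT3, and Mmp8 and Cxcr2 in WT1. Mmp9, a gelatinase stored in neutrophil granules, went the other way with H3K27me3 alone and 0.298, 0 and 0.639 kb of H3K27ac against 6.86, 2.31 and 4.33 kb of H3K27me3 (limma, adjusted p = 0.0194). Of 11 primary granule and granulocyte-factor genes, 4 had H3K27ac alone in all 3 mice: Mpo and Ctsg, enzymes of the primary granules, Csf3r, the receptor of granulocyte colony-stimulating factor, and Spi1, which encodes PU.1. That share is close to the 36.2% of all genes. The other 7 were not in the same state in the 3 mice, against 14.3% of all genes. Among them Elane and Prtn3 had H3K27ac at their ends in WT1 alone, while within 5 kb Prtn3 had 2.21, 0 and 1.09 kb.

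Of 20 stem and progenitor genes 11 were in the same state in every mouse, against 85.7% of all genes. Kit, Myb, Runx1, Mllt3 and Lyl1 had H3K27ac alone. Gata2, a zinc finger factor of stem and mast cells, had 0, 0 and 0.483 kb of H3K27ac against 8.38, 6.21 and 8.0 kb of H3K27me3 (limma, adjusted p = 0.000272). Within 5 kb of their ends Meis1, Mecom and Gata2 were thus covered mainly by H3K27me3, with a mean of 6.73 kb at Meis1 and 7.88 kb at Mecom. H3K27ac covered 1.12, 0 and 2.12 kb there at Meis1 and 0.43, 0 and 2.05 kb at Mecom in WT1, WT2 and WT3. Over the whole gene H3K27ac was called in 3 of 3 mice at Meis1, in 2 at Mecom and in 1 at Gata2. Cd34 and Ly6a had neither mark at their ends, although Ly6a had 0.625, 0.275 and 0.263 kb of H3K27ac within 5 kb (limma, adjusted p = 0.0457). Limma called H3K27ac longer at 8 and H3K27me3 longer at 5 of the 20, against 54.3% and 20.9% of all genes tested.

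Erg, an ETS factor of stem cells (chromosome 16, 95359169 to 95586600), showed how far a gene's ends and its body can differ. At its ends it had H3K27me3 alone in 3 of 3 mice, with 0.230, 0 and 0 kb of H3K27ac against 6.16, 1.62 and 5.60 kb of H3K27me3 within 5 kb (limma, adjusted p = 0.0214). Over the whole gene with 5 kb either side, 14, 7 and 12 H3K27ac peaks covered 29.5, 17.2 and 19.5 kb, against the same 6.16, 1.62 and 5.60 kb of H3K27me3. A 7.07 kb segment inside the gene was among the longest H3K27ac segments that all 3 mice shared.

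Lists of other blood lineages were mixed. Of all genes, 36.2% had H3K27ac alone, 12.5% H3K27me3 alone and 36.2% neither in 3 mice. Of 12 dendritic cell genes, Irf8, Irf4 and Batf3 had H3K27me3 alone in all 3 mice, Xcr1, a chemokine receptor, and the factor Tcf4 had H3K27ac alone, and 5 had neither. Of 12 monocyte and macrophage genes 2 had H3K27me3 alone, Klf4 had both at the same place and 3 had neither. Within 5 kb of its ends Irf8, which directs monocyte and dendritic cell fate, had 0 kb of H3K27ac. H3K27me3 covered 2.82, 1.87 and 2.35 kb there (limma, adjusted p = 0.000669). Over the whole Irf8 gene H3K27ac was called in 2 of 3 mice. Of 15 T lineage genes, Bcl11b, Gata3 and Tcf7 had H3K27me3 alone and Cd3d had H3K27ac alone, while 9 had neither. Gata3, the factor of T helper and early thymic cells, had 0 kb of H3K27ac and 10.0, 8.85 and 10.0 kb of H3K27me3 (limma, adjusted p = 3.69e-05). Of 14 B lineage genes, Ebf1 had H3K27me3 alone, Cd79a H3K27ac alone and Bach2 both. Another 8 were not in the same state in the 3 mice, against 14.3% of all genes. H3K27ac lay at the ends of 71.4%, 57.1% and 14.3% of the 14 in WT1, WT2 and WT3. Vpreb1, Igll1, Rag2, Pou2af1 and Cd79b had it in WT1 and WT2 and not in WT3, although Vpreb1 and Igll1 had 2.78 kb and Rag2 0.747 kb within 5 kb in WT3.

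Of 10 natural killer and innate lymphoid genes, Tbx21, Eomes and Zbtb16 had H3K27me3 alone in all 3 mice, with no H3K27ac within 5 kb, and 6 had neither. Of 19 erythroid genes 5 had H3K27ac alone (Klf1, Tfrc, Car2, Nfe2 and Aqp1), Sptb had both, and 7, including Gata1 and the alpha-globin gene Hba-a1, had neither. The erythroid share with neither was close to the 36.2% of all genes, and that with H3K27ac alone was below the 36.2% of all genes. Hba-a1 has a near-identical copy, so its lack of peaks is uncertain. Of 12 megakaryocyte genes Itgb3 had H3K27ac alone and Gp1bb H3K27me3 alone. None of 12 genes of marrow stroma and endothelium had H3K27ac alone in all 3 mice, and Cxcl12, Lepr and Pdgfra had H3K27me3 alone. H3K27ac, with or without H3K27me3, lay at the ends of 0%, 25% and 0% of the 12 in WT1, WT2 and WT3. The state of 5 of the 12 differed between mice, against 14.3% of all genes.

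**Figure D5:**
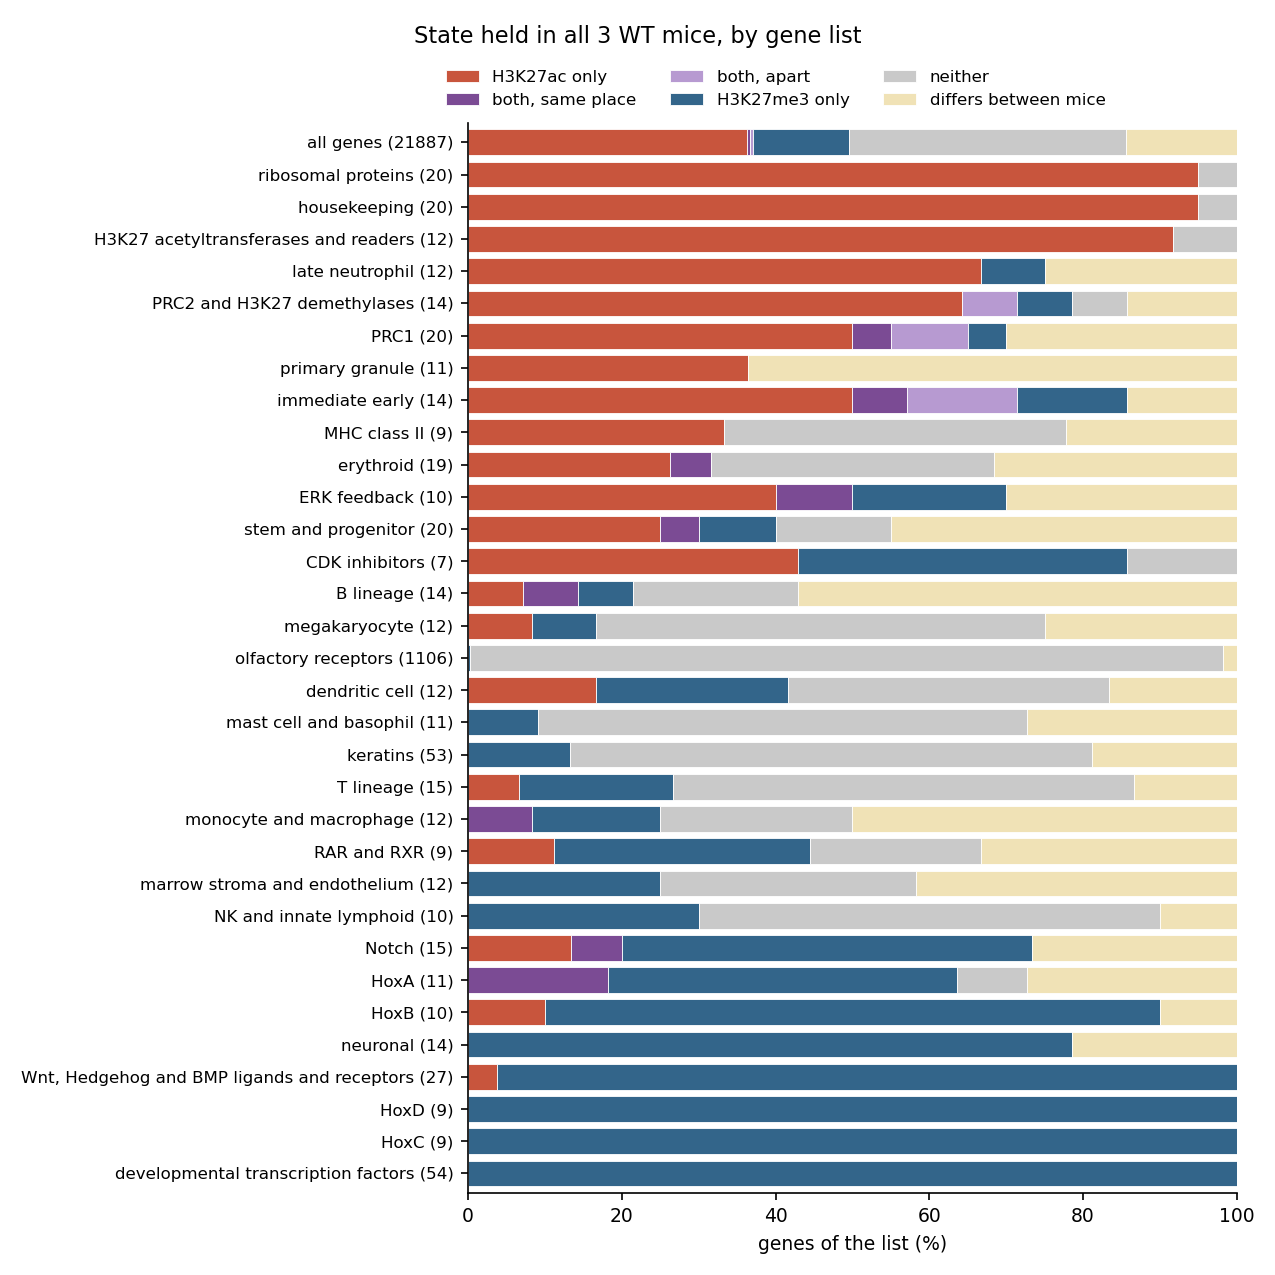
Percent of the genes of each list in each state held in all 3 mice, with all 21887 genes as the top row and the number of genes in brackets; pale yellow is the share whose state differs between mice. Ribosomal and housekeeping genes are at the H3K27ac end, developmental transcription factors at the H3K27me3 end, and blood lineage lists lie between, with shares that differ between mice from 1 of 10 natural killer genes to 7 of 11 primary granule genes. For all genes that share is 14.3%.

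Developmental regulators were uniform. All 54 developmental transcription factors of the list had H3K27me3 alone in all 3 mice, and their median difference in covered length, H3K27ac minus H3K27me3, was -12 kb, against 0.797 kb over all genes tested. Among them Six3 had a mean H3K27me3 length of 17.1 kb and Foxa1 of 16.4 kb, both with no H3K27ac. Of 14 neuronal genes 11 had H3K27me3 alone, and Snap25, Syt1 and Slc17a6 were not in the same state in the 3 mice. Genes for structural or sensory proteins of other tissues differed from these regulators: 1084 of 1106 olfactory receptors and 36 of 53 keratins had neither mark in all 3 mice. For all genes the shares were 12.5% with H3K27me3 alone and 36.2% with neither.

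Ligands and receptors of developmental signalling were likewise under H3K27me3. Of 27 genes of the Wnt, Hedgehog and BMP pathways 26 had H3K27me3 alone, led by Wnt10a with a mean of 15.4 kb, Wnt1 with 11.6 kb and Shh with 11.4 kb. The exception was Fzd7, a Wnt receptor, with H3K27ac alone at its ends. It had 0.584, 0.334 and 1.52 kb of H3K27ac against 0.881, 0.797 and 1.06 kb of H3K27me3 within 5 kb, and the difference did not pass the test (limma, adjusted p = 0.782). Of 15 Notch pathway genes 8 had H3K27me3 alone, including the ligands Dll1, Dll3, Dll4 and Jag2, while the receptors Notch2 and Notch4 had H3K27ac alone and the ligand Jag1 had both at the same place. For all genes the shares were 12.5% with H3K27me3 alone and 36.2% with H3K27ac alone.

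Cell cycle inhibitors were divided, within both of their families. Cdkn2a, which encodes p16 and p19 (chromosome 4, 89274473 to 89294619), had 0 kb of H3K27ac and 16.4, 11.4 and 17.5 kb of H3K27me3, and its neighbour Cdkn2b had 0 kb and 8.09, 8.24 and 9.29 kb. Cdkn1c also had H3K27me3 alone. Cdkn1b, Cdkn2c and Cdkn2d had H3K27ac alone in all 3 mice, Cdkn1b with a mean of 7.44 kb. Cdkn2c also had 2.94 kb ± 2.19 of H3K27me3 within 5 kb, beside 2.01 kb ± 0.289 of H3K27ac (SD, n = 3 each). Cdkn1a had neither mark at its ends but both nearby, at 1.39 kb ± 0.298 of H3K27ac and 1.28 kb ± 0.375 of H3K27me3 (SD, n = 3 each).

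Genes that respond fast to stimuli held H3K27ac, both marks or H3K27me3. Of 14 immediate early genes 7 had H3K27ac alone in all 3 mice, among them Fos, Jun, Junb, Ier2 and Myc. Egr2 and Egr3 had H3K27me3 alone, with means of 4.89 and 7.94 kb, Egr1 and Fosb had both apart, and Klf2 had both at the same place. Of all genes 36.2% had H3K27ac alone and 12.5% H3K27me3 alone, the latter close to the 2 of 14 here. Among feedback inhibitors of ERK signalling, Dusp6, Spry2, Spred1 and Spred2 had H3K27ac alone, Spry4 and Spred3 H3K27me3 alone and Dusp4 both.

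The floxed genes themselves were acetylated. Ezh2 had 2.31, 2.0 and 2.12 kb of H3K27ac and Runx1 3.80, 4.00 and 3.23 kb in WT1, WT2 and WT3, and neither had H3K27me3 within 5 kb of its ends. Rag1 had no peak of either mark. Flt3 had 0.631, 0.505 and 0 kb of H3K27ac against 3.25, 1.36 and 1.99 kb of H3K27me3 (limma, adjusted p = 0.0216), with all of the H3K27ac under H3K27me3 in WT1 and 0.206 kb of it in WT2.

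Chromosome X stood apart in 2 mice. The ratio of H3K27me3 to H3K27ac territory on X was 2.63, 0.974 and 1.78 in WT1, WT2 and WT3, against 0.886, 0.824 and 1.01 on the autosomes together. The X value was above the highest single autosome, 1.17 in WT1 and 1.27 in WT3, in those 2 mice and inside the autosomal range in WT2. The difference was positive in 3 of 3 mice (two-sided exact sign-flip p = 0.25, the smallest possible). Xist, the noncoding RNA that coats the inactive X, had H3K27ac alone in all 3 mice, with 2.70, 1.89 and 2.81 kb. All 256 protein-coding genes of chromosome Y had neither mark in every mouse.

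Long noncoding RNA genes were counted by the same rule, with no test against protein-coding genes. Over 12727 of them, 13.6% ± 1.53 had H3K27ac alone, 9.43% ± 1.72 had H3K27me3 alone and 76.2% ± 3.46 had neither (SD, n = 3). For protein-coding genes these shares were 39.8% ± 1.39, 15.9% ± 1.59 and 41.9% ± 3.77 (SD, n = 3). Malat1 and Neat1, abundant nuclear RNAs, had H3K27ac alone with 9.66, 7.31 and 8.68 kb and 9.19, 8.82 and 9.64 kb. Hottip, beside Hoxa13, had H3K27me3 alone, at 13.5, 13.2 and 13.7 kb. Kcnq1ot1, an imprinted RNA, had H3K27ac alone in all 3 mice.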

How the data were processed

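ChIP-seq peak lists of H3K27ac and H3K27me3 from Kit-enriched marrow of 3 WT mice were used. Chromatin was cross-linked with formaldehyde, per the labels' protocols, and spiked with Drosophila material whose reads were not used here, so no absolute level is given. Per the submitters' processing notes, Bowtie2 2.2.5, MACS2 2.0.10 and build mm10 were used. The authors used paired fragments to call broad peaks in each library at a q-value of 0.05, per the file headers, keeping 1 fragment per position, all against the WT1 input (17018214 fragments). The H3K27ac header of WT1 names the alignment of a single run and the others merged alignments. The deposited lists give the coverage signal of a peak (pileup), its −log10 p-value and −log10 q-value, and its fold enrichment, a ratio to local background. These values of the authors served only to rank or filter peaks. No read counts or genome sequence were used.

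Overlapping peaks of a library were merged. A RefSeq table of GRCm38.p6, the assembly behind mm10, gave the gene positions, without strand. Lengths were compared with limma 3.58.1 in R 4.3.3 (kb, no trend, Benjamini-Hochberg over all genes tested), and single values by two-sided exact permutation over 20 assignments of libraries or sign flips over 3 mice. The interval code and the limma step were tested on simulated data. Members, lists (32, with 1605 symbols) and tests were chosen with earlier results of these data known. Named genes were the 8 with the longest cover in each state, exceptions and double-marked members of the lists, markers and the engineered genes; any other gene was picked with its values known. Some of these genes are not reported here. The libraries of a number come from the same mouse, which pairs them, and their deviations from the mark means correlated at -0.188, -0.207 and 0.000783. Nothing but the mouse labels shows separate animals, and p-values measure the spread between these samples.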

Additional observations from a re-analysis of the deposited data

How the results depend on the processing

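Over 18 results and 201 alternative values, 162 stayed, 35 moved and 4 reversed. A tested result stayed if it kept its direction. A result without a test stayed if it was within the spread between mice or within 1.5 times the main count. Within the first kind sizes still changed, as the territory difference of 1.63 Mb did: it was 10.1 Mb with a −log10 q minimum of 5, and 0.992 to 2.68 Mb when 1 mouse was left out. With only the peaks of −log10 q at least 5 the median width difference, H3K27ac minus H3K27me3, was -1860 bp and the marks shared 6.85% of H3K27me3 territory. H3K27ac only then held 30.45% of genes, H3K27me3 only 1.41%, both at the same place 0.00762%, both apart 0.0624% and neither 68.1%. In every mouse there were then 25 genes with H3K27me3 only, 0 with both at the same place, 0 with both apart and 13406 with neither, and limma called 29 genes longer for H3K27me3. With equal peak numbers the territory difference was -5.10 Mb, the width difference -89.8 bp and the overlap 0.512%. The shares of genes were then 31.9% H3K27ac only, 0.270% both at the same place, 0.564% both apart and 51.6% neither, with 15 and 53 genes of both kinds in every mouse. With at least 500 bp covered, 36.3% had H3K27ac only, 0.658% both at the same place, 0.498% both apart and 47.8% neither, with 43 and 48 genes in every mouse. With the whole gene counted, 42.9% had H3K27ac only, 4.26% both apart (376 genes in every mouse) and 34.4% neither. With at least 500 bp shared, 0.423% had both at the same place (19 genes in every mouse) and 1.94% both apart. Without peaks of pileup at least 50, chosen after seeing the data, the overlap was 0.858%. The cause of these changes was not tested, except that the first 2 settings keep fewer peaks by construction.

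Leaving out 1 mouse at a time gave a width difference of -11 to 145 bp, 99 to 158 genes with both at the same place, 106 to 160 with both apart, and 2136 to 3458 genes longer for H3K27me3. The highest counts of both kinds, 158 and 160, came without WT2, and the lowest limma count without WT3. Counts of genes in a state in every mouse can only stay or rise when a mouse is left out. With mouse as a replicate block limma called 8216 genes longer for H3K27ac and 3280 for H3K27me3, and the sign-flip p of the territory difference was 0.5; the block changed no other call. The window at the gene start was not run, since strand was not used here. Depth, 6515614 to 7072997 fragments for H3K27ac and 2766339 to 3994483 for H3K27me3, limits which peaks could be called.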
